A study of Mus musculus with 48 samples.

Results

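The genes described here are spliceosome and splicing factor genes of the mouse, chosen by symbol. They are the protein-coding genes whose symbol begins with Snrp, Sf3a, Sf3b, Srsf, Lsm, Prpf or U2af. Such symbols also cover LSm genes that act outside the spliceosome, among them Lsm11 and Lsm14a. They do not cover spliceosome genes such as Snrnp70, Snrnp200 and Eftud2, which are counted below among the other spliceosome genes. This rule found 62 members among 48709 genes in the count table. They comprised 8 genes of the Sm core, 4 genes for proteins specific to the U1 or U2 snRNP, 9 SF3A and SF3B genes, 3 U2AF genes, 13 LSm genes, 13 PRPF genes and 11 SR protein genes. The remaining member, Lsmem1, encodes a membrane protein that shares only the letters of its symbol with the LSm family; its level lay between 0 and 0.44 CPM (counts scaled by library size) and it was tested nowhere. The members were measured by RNA-seq of brain tissue from 46 C57BL/6J mice in 8 groups. In each genotype, Fmn2+/+ and Fmn2-/-, 5 mice were labelled 3 months old, and 3 Fmn2+/+ and 5 Fmn2-/- mice were labelled 8 months old; Fmn2-/- mice carry a constitutive loss of the actin-nucleating protein Formin 2, not limited to any cell type. A cross with the APPPS1-21 line, in which neurons make mutant human amyloid precursor protein and presenilin 1, gave 7 mice labelled Fmn2-/-_APP and 9 labelled Fmn2+/+ APP, all 3 months old. In addition, 6 APP and 6 wild-type mice were labelled 4 months old.

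Pre-mRNA introns are removed by the spliceosome, a machine assembled from small nuclear ribonucleoproteins (snRNPs), built around small nuclear RNAs. The Sm proteins form a ring on most of these RNAs and LSm proteins form a related ring on U6, while U2AF and the SF3A and SF3B complexes define the 3' splice site and the branch point. PRPF proteins belong to the tri-snRNP and the catalytic steps, and SR proteins bind exons and help to choose splice sites. Neurons depend on a large repertoire of alternative exons, and they replace much of the ubiquitous SmB with its close paralog SmN, encoded by the imprinted gene Snrpn.

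The question of the main comparisons was how loss of Fmn2 changed the transcriptome in young and in older mice. Several features of the libraries bear on every result. Fmn2 fell in the Fmn2-/- mice at 3 months (21.3 to 26.3 against 89.7 to 104.3 CPM) and at 8 months (21.6 to 28.2 against 76.9 to 106.9 CPM), but in the cross it went against the labels: it stood at 85.2 to 105.3 CPM in the libraries labelled Fmn2-/-_APP and at 19.4 to 24.04 CPM in those labelled Fmn2+/+ APP. The tissue label is dentate gyrus throughout, yet the titles of the 4-month libraries carry the letters PFC, and the summed CPM of granule cell markers was 32.7 to 42.2 in those libraries against 457 to 911 in all others. At 8 months the Fmn2+/+ libraries held 43921030, 6818809 and 8381078 counts and the Fmn2-/- libraries 9175551 to 11675280; Fmn2+/+ replicate 1, the deepest, was on another sequencing lane than the other 8-month mice. Fmn2-/- replicates 2 and 3 at 8 months were the most alike of all pairs of mice in a group, with a chi-square of 1.58 for each degree of freedom where repeat runs of 1 mouse gave 1.66 and 2.05, and both had a high summed level of choroid plexus markers (582 and 554 CPM against 28.2 to 93.2 in the other 3). They are labelled as separate samples and were kept as such, and whether they are 1 library cannot be told, so results are also given with the pair summed. The members together took 0.409 to 0.505% of the counts in each library.

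Per kilobase of exon, for a rough comparison between genes, Snrpn was the most abundant member by far, with a median over the 46 mice of 206.0 CPM per kb. Next came a tight field of Srsf5 (42.9), Srsf1 (38.7), Sf3b2, a branch point complex subunit (37.0), Srsf2 (34.1), Srsf7 (33.8), Srsf6 (32.8), Sf3b1, the subunit that contacts the branch point (32.7), and Prpf8, the scaffold of the catalytic core (32.1). Neighbours in this order are close, and their order is not tested. Exon length counts every base that is exonic in any annotated transcript, so each place in the order depends on the annotation. Snrpc, for instance, has 6521 bases of exon and 546 of coding sequence. At the low end were Snrpf, a core Sm gene, at 1.95, Snrpc, which encodes the U1 protein that stabilises pairing with the 5' splice site, at 1.14, Lsm7 at 0.737 and U2af1l4, a U2AF small-subunit paralog, at 0.252 CPM per kb. The Snrpf value is uncertain because 85.4% of its exon length is covered by genes on the opposite strand and the libraries did not mark strand; for U2af1l4 that share is 66.1%, for Srsf4 43.0%, and 34.1% of the exon length of Snrpn is shared with Snurf and other genes.

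SmN and SmB, the products of Snrpn and Snrpb, take the same place in the Sm ring, and their genes were set against each other in every group. The ratio of Snrpn to Snrpb CPM had a median of 12.3 in the 3-month Fmn2+/+ group and 10.6 in the 3-month Fmn2-/- group. It was 8.26 and 8.43 in the 8-month Fmn2+/+ and Fmn2-/- groups, 8.02 and 7.56 in the 4-month wild-type and APP groups, and 5.18 and 5.88 in the libraries labelled Fmn2-/-_APP and Fmn2+/+ APP. Snrpn made up between 56.6 and 74.3% of the summed Sm core level per kb in each mouse. This share depends on the same annotated exon lengths. Reads of pseudogene copies may also enter it, with 4 copies each for Snrpf and Snrpg, 2 each for Snrpe and Snrpd2, and 1 each for Snrpn and Snrpd1. Both coding sequences are 80.9% identical over 686 bases.

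Leaving out Lsmem1, the SD of log2 CPM within a group ranged from 0.06 to 0.47 (median 0.13), with the smallest value for Sf3b2 and the largest for U2af1l4. The distance between the highest and the lowest group mean had a median of 0.65 on the log2 scale, and it exceeded 0.5 for 37 and 1 for 8 of 61 members. Of the 61, 38 had their lowest mean in a 4-month group and 29 their highest in a cross group; age, tissue, batch and genotype cannot be told apart across these groups. Sf3b6, the small SF3B subunit also known as p14, had medians of 27.4 and 29.9 CPM in the 4-month wild-type and APP groups and of 48.9 to 67.9 CPM in the other groups. Lsm3, a subunit of the LSm rings, stood at 7.97 and 8.09 CPM at 4 months and at 14.2 to 19.6 elsewhere. Prpf40b, a U1-associated protein, ran the other way, with 115.1 and 103.01 CPM at 4 months and 52.5 to 68.2 elsewhere.

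**Figure D1:**
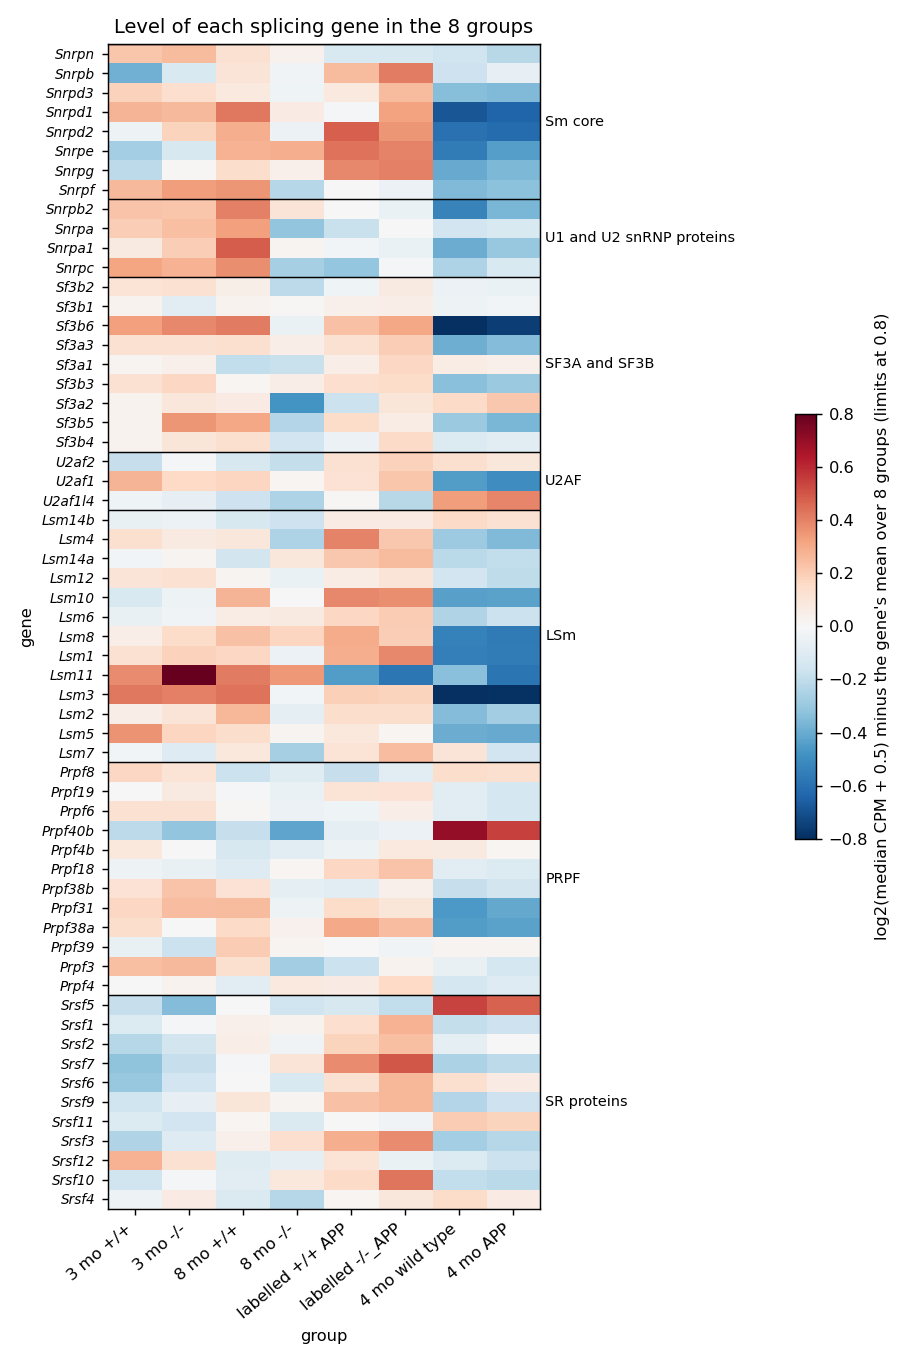
Level of the members in the 8 groups, as the median log2 CPM of each group (columns) minus the gene's mean over the groups, for the members reported (lines, by class), from CPM normalised over all 46 mice. Many members, Sf3b6 and Lsm3 among them, are lowest in the 4-month groups, while Prpf40b is highest there.

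At 8 months, 2 of 60 members tested fell in the Fmn2-/- mice and 0 rose (edgeR quasi-likelihood test, Benjamini-Hochberg adjusted p under 0.05, with a log2 difference of 0.25 or more in either direction). U2af1l4 and Lsmem1 did not pass the filter on low counts. Over all 14665 genes tested 1.13% passed, 0.88% downwards, against 3.33% of the members. The 2 genes were Snrpa, which encodes the protein of the U1 snRNP that binds a stem-loop of U1 snRNA, and Sf3b5, a small structural subunit of SF3B. Without the adjustment for multiple tests, 16 members were lower and 3 higher at p under 0.05, where 12.5 and 10.9% of all genes were. In all, 36 members were lower and 24 higher, with a median log2 fold change of -0.03 beside 0.01 over all genes.

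Snrpa stood at 32.4, 24.3 and 31.4 CPM in Fmn2+/+ replicates 1 to 3 and at 22.7, 20.4, 18.3, 18.96 and 20.4 CPM in Fmn2-/- replicates 1 to 5. Every Fmn2-/- mouse was below every Fmn2+/+ mouse, with means of 20.2 ± 1.70 CPM (SD, n = 5) and 29.4 ± 4.41 CPM (SD, n = 3). The log2 fold change was -0.56 with an SE of 0.11 and an edgeR adjusted p of 0.0434. Some Snrpa reads cannot be assigned with certainty, since 11.03% of its exon length overlaps BC024978 on the other strand and 6 pseudogene copies match its coding sequence. Sf3b5 stood at 33.1, 24.3 and 28.1 CPM in the Fmn2+/+ mice and at 20.7, 19.1, 19.6, 18.96 and 21.04 CPM in the Fmn2-/- mice. Again the groups did not overlap. Their means were 28.5 ± 4.41 (SD, n = 3) and 19.9 ± 0.95 CPM (SD, n = 5), a log2 fold change of -0.55 (SE 0.10, edgeR adjusted p 0.0414). Sf3b5, a gene on the plus strand of chromosome 10 (mm10, 13005343 to 13009183), has no overlapping gene and no pseudogene copy that met the same criteria.

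Both calls were close to the threshold and rested on single libraries and settings. With Fmn2-/- replicates 2 and 3 summed, the log2 fold changes were -0.56 and -0.55 but the edgeR adjusted p was 0.108 for both, so that 0 members passed (5 genes over all). Within the lane shared by the other mice, that is without Fmn2+/+ replicate 1, 0 members and 4 genes passed, whereas without Fmn2+/+ replicate 2 the counts were 14 members and 3087 genes. Without any 1 of the 5 Fmn2-/- mice, 0 members and 4 to 10 genes passed.

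**Figure D2:**
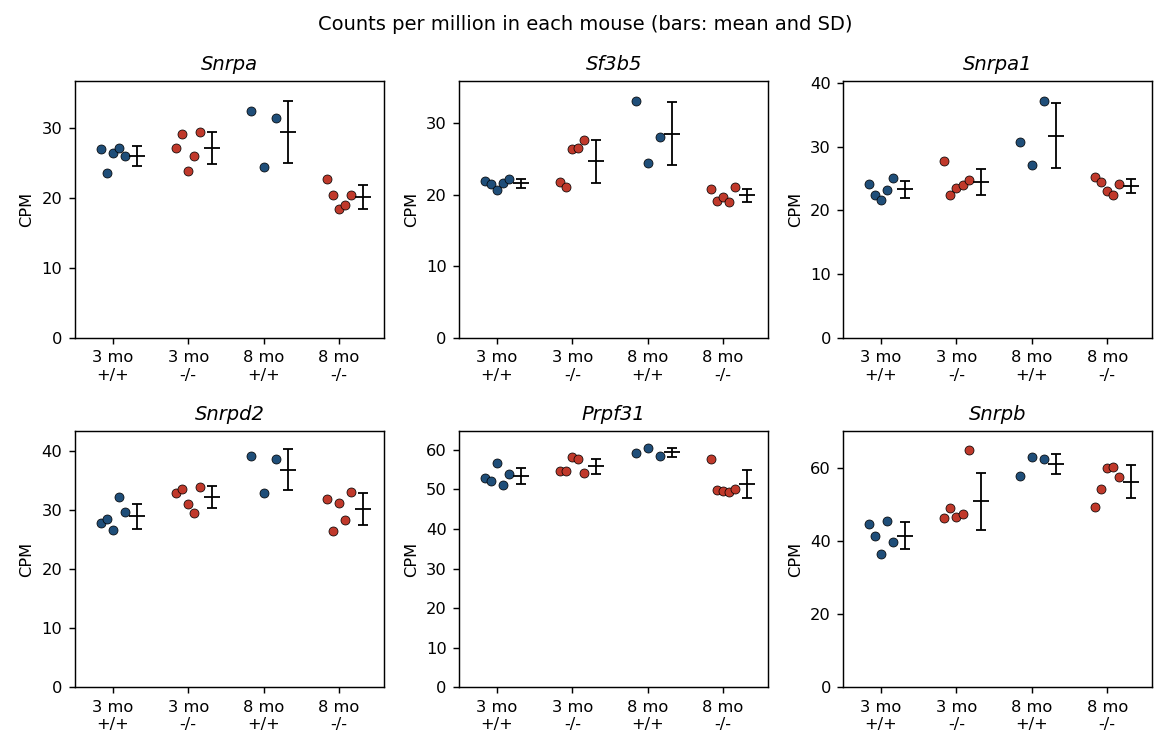
CPM of the named members in each mouse of the 3-month and 8-month groups, normalised within each age, with 1 point per mouse and the mean and SD of the group beside it. At 8 months all 5 Fmn2-/- points of Snrpa and Sf3b5 lie below the 3 Fmn2+/+ points, and at 3 months the points of Snrpa are interleaved.

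Snrpc, Snrpa1 and Snrpb2, the other members of the U1 and U2 snRNP class, had values in the same direction as Snrpa without passing the test. All 4 members of this class were lower at 8 months, each at an unadjusted p under 0.05, with a median log2 fold change of -0.41. The class leaves out the SF3A and SF3B genes and Snrnp70, which are counted in other lists. Snrpa1 encodes the protein that, together with the Snrpb2 product, binds U2 snRNA. It stood at 30.7, 27.2 and 37.3 CPM in the Fmn2+/+ mice and at 25.3, 24.5, 23.1, 22.4 and 24.1 CPM in the Fmn2-/- mice, without overlap (log2 fold change -0.41, SE 0.10, edgeR adjusted p 0.0572). Snrpc had 9.88, 6.65 and 11.1 CPM against 9.35, 7.08, 6.30, 6.12 and 6.73 CPM, and Fmn2+/+ replicate 2 lay among the Fmn2-/- mice (-0.40, SE 0.18, edgeR adjusted p 0.202). Snrpb2 differed least of the 4 (-0.19, edgeR adjusted p 0.18).

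Of the 8 Sm core genes, 7 were lower and Snrpe was higher at 8 months, with a median log2 fold change of -0.10, and none passed by edgeR, 2 of them being lower at an unadjusted p under 0.05. Those 2 were Snrpd1 and Snrpd2, whose products SmD1 and SmD2 sit side by side in the ring. Snrpd1 was at 44.0, 43.2 and 49.3 CPM in Fmn2+/+ mice and at 39.6, 34.7, 34.1, 37.5 and 37.3 CPM in Fmn2-/- mice, so the groups did not overlap (-0.31, SE 0.08, edgeR adjusted p 0.0632); DESeq2 called it lower. Snrpd2 was at 39.1, 32.96 and 38.6 against 31.9, 26.5, 31.2, 28.3 and 33.1 CPM, with 1 Fmn2-/- mouse just above the lowest Fmn2+/+ mouse (-0.30, SE 0.09, edgeR adjusted p 0.103). The largest log2 difference of the class was that of Snrpf (-0.52, SE 0.25, edgeR adjusted p 0.238), on counts of only 1.49 to 2.57 CPM in the Fmn2+/+ and 1.20 to 1.99 CPM in the Fmn2-/- mice, which overlapped. Neither paralog of the SmB pair moved beyond its spread. Snrpb was at 57.9, 63.05 and 62.4 against 49.4, 54.3, 59.9, 60.2 and 57.6 CPM (-0.11, SE 0.08, edgeR adjusted p 0.409), and Snrpn at 521, 502 and 515 against 520, 485, 499, 500.2 and 486 CPM (-0.04, SE 0.06, edgeR adjusted p 0.717).

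Among the 9 SF3A and SF3B genes, 5 were lower and 4 higher at 8 months (median -0.16), and besides Sf3b5 the SF3A subunit Sf3a2 (-0.40, edgeR adjusted p 0.107) and Sf3b6 (-0.28, edgeR adjusted p 0.118) missed the adjusted threshold. Sf3b2, at 225 to 248 against 254 to 269 CPM, and Sf3b4, at 7.33 to 10.12 against 10.13 to 11.8 CPM, were lower in every Fmn2-/- mouse, while Sf3b3, the scaffold subunit, was higher in every one (117 to 133 against 111 to 115 CPM). The class therefore did not move as one. U2AF showed no difference beyond the spread: U2af1, which recognises the AG at the 3' splice site, was at 10.51, 8.92 and 12.04 CPM against 10.7, 10.46, 10.3, 9.78 and 10.2 CPM (-0.03, SE 0.12, edgeR adjusted p 0.894).

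The LSm genes split into 8 lower and 5 higher (median -0.14), with 4 lower and 1 higher at an unadjusted p under 0.05 and 0 past edgeR's adjusted threshold. Lsm7 had the largest log2 difference (-0.57, SE 0.26, edgeR adjusted p 0.212), from 1.55, 1.058 and 1.26 CPM in the Fmn2+/+ mice and 0.956, 0.872, 0.900, 0.765 and 1.14 CPM in the Fmn2-/- mice, a low level at which the groups overlapped. Lsm4, with 27.6, 22.4 and 24.9 against 19.5, 20.6, 21.8, 19.9 and 17.7 CPM, did not overlap (-0.35, edgeR adjusted p 0.0836). The member that DESeq2 called higher was Lsm14a, whose product acts in the cytoplasm in mRNA storage and not in the spliceosome (62.4, 76.8 and 61.5 against 74.9, 81.4, 82.9, 80.6 and 82.9 CPM, 0.28, SE 0.08, edgeR adjusted p 0.0973).

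PRPF genes were balanced, with 7 lower and 6 higher, a median of -0.02, and 2 lower and 1 higher at an unadjusted p under 0.05; 0 passed by edgeR or DESeq2. Prpf3, a U4/U6 protein, had the largest log2 difference of the class (-0.27, SE 0.10, edgeR adjusted p 0.132) from 28.04, 24.2 and 31.6 CPM in the Fmn2+/+ mice and 25.5, 23.2, 22.6, 21.5 and 23.4 CPM in the Fmn2-/- mice, which overlapped. Prpf31, which bridges U4 and U5 in the tri-snRNP, was at 59.1, 60.5 and 58.4 CPM against 57.6, 49.8, 49.5, 49.2 and 50.1 CPM, without overlap (-0.21, SE 0.07, edgeR adjusted p 0.122). SR protein genes went the other way in number, 8 higher and 3 lower (median 0.03). Srsf7, a shuttling SR protein, had the largest log2 difference among them, from 111, 128 and 125 CPM in the Fmn2+/+ mice to 135, 140, 145, 137 and 124 CPM in the Fmn2-/- mice, which overlapped through Fmn2-/- replicate 5 (0.17, SE 0.08, edgeR adjusted p 0.205). None of the 11 SR genes passed by edgeR or DESeq2, and Srsf7 alone had an unadjusted p under 0.05.

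Over all classes, 9 members were lower without overlap between the genotypes (Lsm2, Lsm4, Prpf31, Sf3b2, Sf3b4, Sf3b5, Snrpd1, Snrpa and Snrpa1) and 3 higher (Prpf4, Prpf4b and Sf3b3), of 60; over all genes the shares were 6.57% lower and 5.11% higher. DESeq2 called 5 members, Sf3b5, Snrpa, Snrpa1 and Snrpd1 lower and Lsm14a higher, among 733 genes in all. Cell type markers also differed by genotype in these mice. The summed level of astrocyte markers was 1786 to 2076 CPM in Fmn2-/- against 1584 to 1726 CPM in Fmn2+/+ mice (4 of 5 markers higher, 1 called), and that of oligodendrocyte markers 1735 to 2474 against 2559 to 3021 CPM (5 of 5 lower, 0 called by edgeR). Of 6 dentate granule markers 4 were higher and 2 lower, and 1 was called lower. Mitochondrial genes took 5.37 to 7.14% of counts in Fmn2-/- and 6.999 to 8.44% in Fmn2+/+ mice. The part of these markers and of the mitochondrial share in the members' differences was not tested. In bulk tissue, fewer cells of a type and less RNA per cell cannot be told apart.

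**Figure D3:**
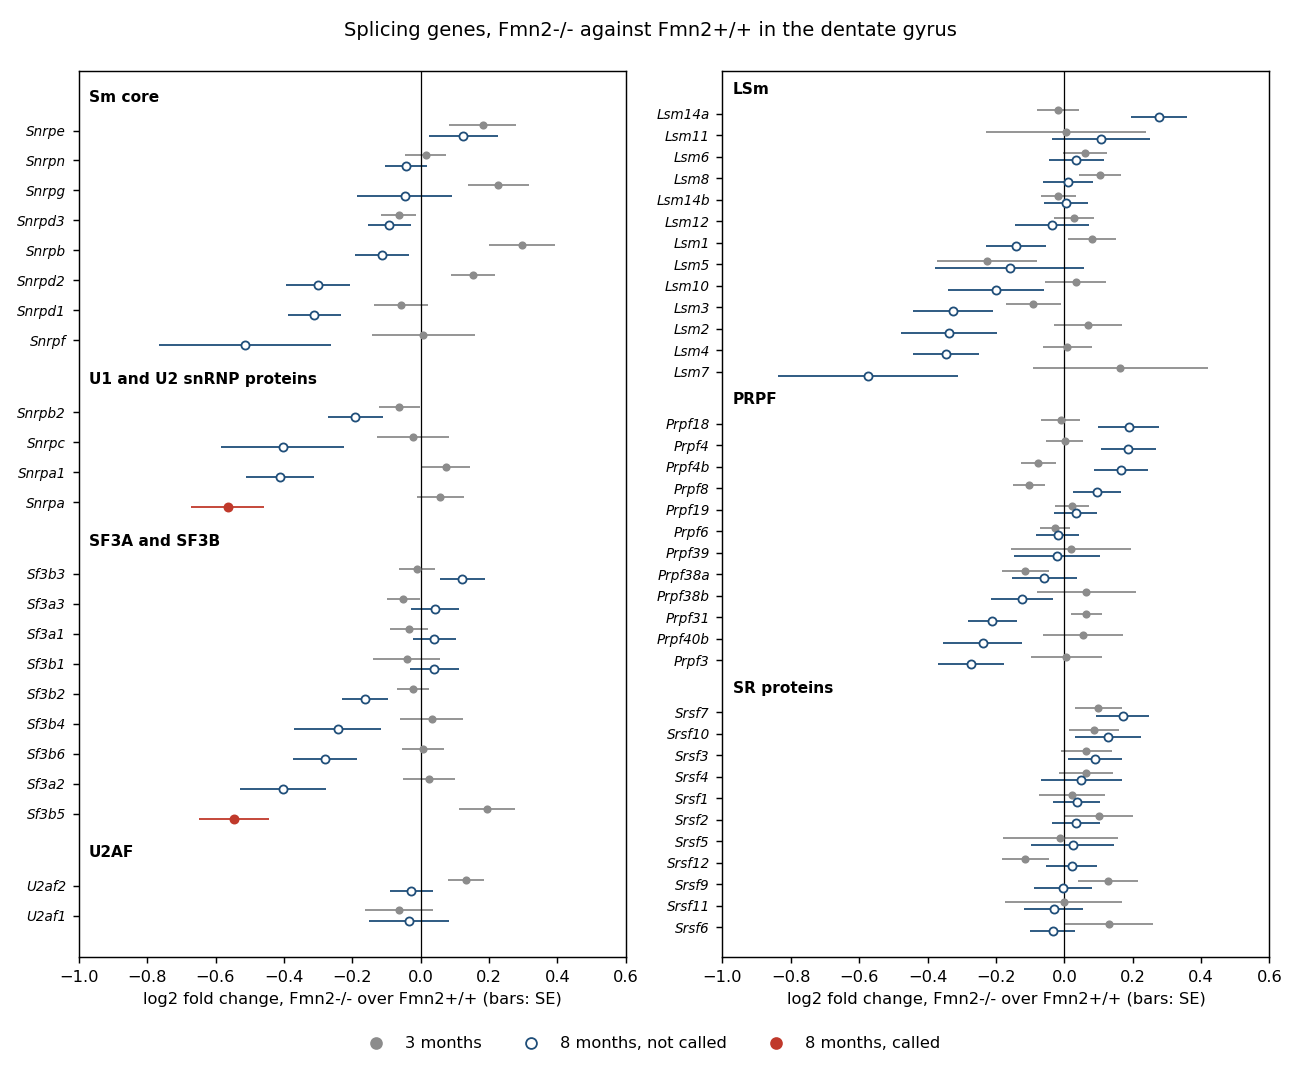
Log2 fold change (Fmn2-/- against Fmn2+/+) of the tested members reported, by class, at 3 and at 8 months, with SE bars, in grey for 3 months and in blue, or red where called, for 8 months. At 8 months the 4 genes of the U1 and U2 snRNP class lie below 0 with a median of -0.41. The SR proteins lie around 0 with a median of 0.03.

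The genotype difference at 8 months was next compared with that at 3 months, in 1 edgeR model over the 18 mice with an age-by-genotype term. In this test 5 of 61 members (8.2%) had a genotype difference that was lower at 8 than at 3 months and 0 one that was higher; over 17046 genes 3.73% passed, 2.99% downwards. These were Sf3b5 (difference of log2 fold changes -0.75, SE 0.13, edgeR adjusted p 0.00961), Snrpa (-0.63, SE 0.13, adjusted p 0.0149), Snrpa1 (-0.50, SE 0.12, adjusted p 0.0304), Snrpd2 (-0.47, SE 0.11, adjusted p 0.0301) and Prpf31 (-0.29, SE 0.08, adjusted p 0.0451). They span 4 classes, namely U1 and U2 proteins, SF3B, the Sm core and PRPF. In all, 40 members had a lower and 21 a higher difference at 8 months (median -0.08, beside -0.02 over all genes), among them all 8 Sm core genes (median -0.28) and all 4 U1 and U2 genes (median -0.45).

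Prpf31, Snrpa, Snrpa1 and Snrpd2 all lie on mouse chromosome 7, which holds 8 tested members; 72 of 1372 genes on that chromosome passed (5.25%), as did 48 of 782 (6.14%) on chromosome 10, where Sf3b5 lies. The reads of Prpf31 cannot be separated from those of Gm15927, which overlaps 18.1% of its exon length on the other strand. With Fmn2-/- replicates 2 and 3 summed, Sf3b5 and Snrpa passed (2 members of 227 genes). With a correction for transcript length and GC content, Sf3b5 alone did (1 member of 19 genes). Lane was not fitted as a covariate in this test. Without 8-month Fmn2+/+ replicate 1, 0 members and 8 genes passed, and without 8-month Fmn2+/+ replicate 2, 12 members and 2791 genes; leaving out any other mouse gave 1 to 5 members.

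At 3 months the members differed little by genotype. By edgeR 0 of 61 passed, as did 0 by DESeq2, where 0.0301% of 16630 genes passed by edgeR; at an unadjusted p under 0.05, 5 were higher and 2 lower (6.35 and 4.17% of all genes), and the median log2 fold change was 0.0144 beside 0.0041 over all genes. Snrpb was the single member without overlap between genotypes (1.94% of all genes were higher without overlap). It stood at 44.6, 41.3, 36.6, 45.4 and 39.7 CPM in the Fmn2+/+ mice and at 46.5, 49.0, 46.7, 47.5 and 64.8 CPM in the Fmn2-/- mice (0.30, SE 0.10, edgeR adjusted p 0.324), and replicate 6 of the latter stood far above the rest. Snrpn was at 548, 510.1, 528, 457 and 504 against 472, 519, 517, 551 and 513 CPM, which overlapped.

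None of the 5 genes with an age-dependent difference was lower in Fmn2-/- mice at 3 months. Snrpa was at 27.02, 23.6, 26.3, 27.03 and 25.97 CPM in Fmn2+/+ and at 27.03, 29.1, 23.8, 25.9 and 29.4 CPM in Fmn2-/- mice, which overlapped almost wholly (0.06). Sf3b5 was at 21.9, 21.5, 20.6, 21.6 and 22.2 against 21.7, 20.99, 26.4, 26.5 and 27.6 CPM, with 3 of the Fmn2-/- mice above the range of the Fmn2+/+ group (0.19, edgeR adjusted p 0.442). For the other 3 the log2 differences were also small. Snrpa1 ranged from 21.6 to 25.03 and from 22.4 to 27.8 CPM (0.07), Snrpd2 from 26.6 to 32.3 and from 29.6 to 34.0 CPM (0.15), and Prpf31 from 51.2 to 56.6 and from 54.02 to 58.04 CPM (0.06). On the other side of 0, Prpf8 was lower at an unadjusted p under 0.05 (-0.10, edgeR adjusted p 0.464).

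Of the 60 members tested at both ages, 25 were higher in Fmn2-/- mice at 3 months and lower at 8 months, 12 went from lower to higher, 12 were higher at both and 11 lower at both. The mice of the 2 ages are different animals, so these counts share no library. All 3-month Fmn2+/+ mice and Fmn2-/- replicate 1 shared a lane and the other 4 Fmn2-/- mice were on another, and Fmn2-/- replicate 4 carried 4269 CPM of choroid plexus markers; the part of the latter in these values was not tested. With lane as a covariate the median log2 fold change of the members at 3 months was 0.09. That fit takes the genotype difference from Fmn2-/- replicate 1 alone, the only Fmn2-/- mouse on the lane of the Fmn2+/+ mice.

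To show the sequence at the genes whose genotype difference depended on age, the start regions of Snrpa and Snrpd2 are printed here, with those of Snrpc, the member nearest to a call in the cross, and Sf3b6, whose level was lowest in the 4-month groups; this set was chosen after the values were seen. Each run is 300 bases from RefSeq (GRCm38.p6), from 250 before to 50 after a start site, 5' to 3' on the gene's strand. Capitals mark matches, on either strand, to CCCGCCCC (a motif of the SP family), CCGGAAGC (ETS family) and its inner core CGGAAG or, reversed, CTTCCG; the core is contained in CCGGAAGC, and it was added after the values were seen. Snrpa has 2 annotated starts.
Snrpa, upstream start (chr7:27196222-27196521, minus strand): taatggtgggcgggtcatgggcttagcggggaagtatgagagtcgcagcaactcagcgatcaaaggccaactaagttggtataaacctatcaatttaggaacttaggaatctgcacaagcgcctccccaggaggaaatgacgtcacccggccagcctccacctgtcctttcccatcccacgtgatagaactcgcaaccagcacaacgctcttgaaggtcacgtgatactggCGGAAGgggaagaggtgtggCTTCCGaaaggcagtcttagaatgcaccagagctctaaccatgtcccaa
Snrpa, downstream start (chr7:27195711-27196010, minus strand): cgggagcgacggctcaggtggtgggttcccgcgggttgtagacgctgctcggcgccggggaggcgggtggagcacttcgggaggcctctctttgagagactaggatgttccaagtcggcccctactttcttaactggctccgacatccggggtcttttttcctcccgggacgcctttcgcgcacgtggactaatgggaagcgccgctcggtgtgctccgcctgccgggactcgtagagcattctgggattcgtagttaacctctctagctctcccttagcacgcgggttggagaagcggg
Snrpd2 (chr7:19149588-19149887, plus strand): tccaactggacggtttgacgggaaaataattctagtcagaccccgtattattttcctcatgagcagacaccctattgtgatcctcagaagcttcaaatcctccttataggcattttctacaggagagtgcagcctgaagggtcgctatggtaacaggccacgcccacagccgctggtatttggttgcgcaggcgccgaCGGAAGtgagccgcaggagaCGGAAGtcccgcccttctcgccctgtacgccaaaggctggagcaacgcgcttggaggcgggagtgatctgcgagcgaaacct
Snrpc (chr17:27839837-27840136, plus strand): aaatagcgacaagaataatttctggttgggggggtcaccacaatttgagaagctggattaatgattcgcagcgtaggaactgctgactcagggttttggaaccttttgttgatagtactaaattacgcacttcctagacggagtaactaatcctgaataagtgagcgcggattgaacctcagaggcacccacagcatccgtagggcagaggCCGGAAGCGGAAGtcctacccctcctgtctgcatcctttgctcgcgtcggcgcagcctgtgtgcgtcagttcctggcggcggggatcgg
Sf3b6 (chr12:4817358-4817657, plus strand): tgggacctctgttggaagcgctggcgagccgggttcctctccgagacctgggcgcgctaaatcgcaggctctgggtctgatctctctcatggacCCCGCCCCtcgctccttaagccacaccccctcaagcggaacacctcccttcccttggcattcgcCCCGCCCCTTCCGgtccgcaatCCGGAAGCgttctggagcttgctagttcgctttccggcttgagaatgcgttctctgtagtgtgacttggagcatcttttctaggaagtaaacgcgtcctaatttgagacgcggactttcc

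The core CGGAAG occurred in both orientations around the upstream start of Snrpa, at bases -19 and +1, and in none of the downstream window. Snrpd2 held it at -52 and -32 in the same orientation. Snrpc held CCGGAAGC at -39 with a further core at -32, and Sf3b6 held CCCGCCCC at -156 and -92, CTTCCG at -85, overlapping the end of the latter, and CCGGAAGC at -70. A start region was given for 52 of the 62 members, in 66 windows. CGGAAG was present in 30 of the 52 (57.7%). The share was 32.7% of 11028 genes tested at 8 months that had a start region, and 18.8% of all 27025 genes with one. CCGGAAGC was present in 6 (11.5%, against 6.65 and 3.38%) and CCCGCCCC in 13 (25%, against 34.7 and 18.4%). Of the 4 called members with a window, Prpf31, Snrpa, Snrpa1 and Snrpd2, 3 held CGGAAG, while 0 held either longer motif.

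In the cross the libraries labelled Fmn2-/-_APP were compared with those labelled Fmn2+/+ APP, in which Fmn2 counts run against the labels, so each direction given is that of the labels alone. By edgeR 0 of 61 members passed at an absolute log2 fold change of 0.5 (0.774% of 16656 genes did), and 0 by DESeq2. Of the members, 49 were higher and 12 lower in the libraries labelled Fmn2-/-_APP (median 0.04, beside 0.01 over all genes). Without replicate 2 of those libraries the counts were 39 and 22, and with lane as a covariate 42 and 19. In the fit of all mice, 13 were higher and 0 lower at an unadjusted p under 0.05, where 8.87% of all genes were higher and 7.77% lower. With no fold threshold Snrpc alone had an edgeR adjusted p under 0.05 (0.0419), against 1.57% of all genes, and its groups did not overlap, which held for 0.354% of genes in that direction. Snrpc lay between 7.58 and 8.88 CPM (median 7.96) in the libraries labelled Fmn2-/-_APP and between 5.604 and 7.502 CPM (median 6.46) in the libraries labelled Fmn2+/+ APP, a log2 difference of 0.31 (SE 0.08). Its coding sequence has 7 pseudogene copies, whose reads may not be separable.

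Other members were higher in the libraries labelled Fmn2-/-_APP with overlapping values. Snrpd3, the SmD3 gene, lay between 94.3 and 123 CPM (median 102.98) against 85.5 and 103.11 CPM (median 93.4), a log2 difference of 0.22 (edgeR adjusted p 0.088). Srsf7 lay between 164 and 194 CPM (median 175.5) against 146 and 170.5 CPM (median 162), 0.16 on the log2 scale (edgeR adjusted p 0.101). The Sm core genes Snrpd1 (0.25) and Snrpb (0.22), together with Snrpa (0.21), Srsf10 (0.20) and Srsf6 (0.18), had similar log2 differences. By class, 9 of 9 SF3A and SF3B genes and 10 of 11 SR genes were higher, 5 of the latter at an unadjusted p under 0.05. Sf3b5, at 20.4 to 33.3 against 12.4 to 31.9 CPM, and Snrpn, at 347 to 514 against 326 to 448 CPM, overlapped widely. Replicates 4 and 5 of the libraries labelled Fmn2+/+ APP held 9294 and 6060 CPM of choroid plexus markers, against 47.2 to 119 CPM in all libraries labelled Fmn2-/-_APP. In the latter 5 of 5 oligodendrocyte markers were higher (median log2 difference 0.44; summed level 1557 to 2781 against 1147 to 1840 CPM) and 5 of 5 microglia markers lower (-0.17; 184 to 268 against 205 to 269 CPM). Of 6 dentate granule markers 5 were higher and 1 of them called (median 0.17; 486 to 911 against 484 to 801 CPM). The part of these cell types in the members' values was not tested.

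**Figure D4:**
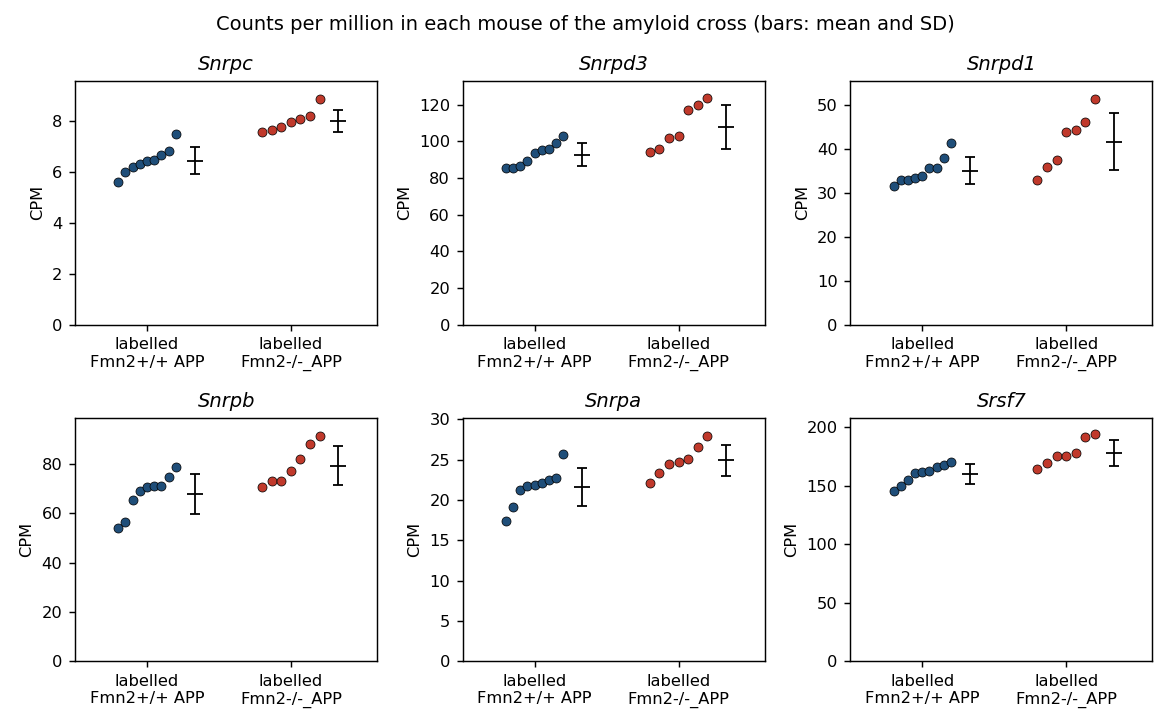
CPM of members in each mouse of the cross, normalised within the cross, by the groups as labelled (7 libraries labelled Fmn2-/-_APP and 9 labelled Fmn2+/+ APP, whose Fmn2 counts go against these labels). Points are mice and bars the mean and SD; the groups do not overlap for Snrpc and do for Srsf7.

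In the 4-month mice, where APP was compared with wild type, 0 of 61 members passed by edgeR (2.34% of 16733 genes did) and 0 by DESeq2. At an unadjusted p under 0.05, where 7.55% of all genes were higher and 6.77% lower, 2 were higher (Snrpb2, 0.14, and Srsf2, 0.09) and 1 lower (Lsm11, a U7 snRNP protein of histone mRNA processing, -0.22, edgeR adjusted p 0.127). Of the members 33 were higher and 28 lower, with a median of 0.0104 beside -0.0004 over all genes; corrected for length and GC content, 19 were higher and 42 lower (median -0.0335). Snrpa lay between 22.2 and 26.2 CPM in the APP mice and between 19.1 and 23.8 CPM in the wild-type mice, and Sf3b5 between 16.5 and 22.5 and between 17.2 and 19.3 CPM, so both overlapped. Cell type markers differed here too. All 5 microglia markers were called higher in APP mice (median log2 difference 0.69), and 5 of 5 astrocyte markers were higher (0.06, 1 called). Oligodendrocyte markers were lower, 5 of 5 (-0.79, 1 called), as were 5 of 5 neuron markers (-0.05, 0 called). The part of these cell types in the members' values was not tested. All APP mice were on 1 lane and all wild-type mice on another, so lane and genotype cannot be told apart here.

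Differences between the 8-month genotypes ran with gene length. Across the 60 members, Spearman's rho between exon length and log2 fold change was 0.49 and across all genes 0.35; the points are genes from the same 8 libraries and are not independent. For GC content rho was -0.29 among members and -0.46 over all genes. Among members with less exon than 4444 bases, the median over all tested genes, 26 of 36 were lower in Fmn2-/- mice (72.2%, median -0.10), where 62.4% of all genes of that length were (median -0.07). Of the longer members 10 of 24 were lower (41.7%, median 0.04), against 35.2% of all genes (median 0.07). At 3 months the relation had the opposite sign, with a rho of -0.21 for members and -0.22 for all genes. With length and GC content corrected for, 44 members were lower and 16 higher at 8 months (median -0.07, beside -0.01 for all genes), and Sf3b5 remained the 1 member called, among 21 genes (0.143%). The log2 fold change of Sf3b5 was then -0.63 (edgeR adjusted p 0.0497) and that of Snrpa -0.45 (edgeR adjusted p 0.0708).

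**Figure D5:**
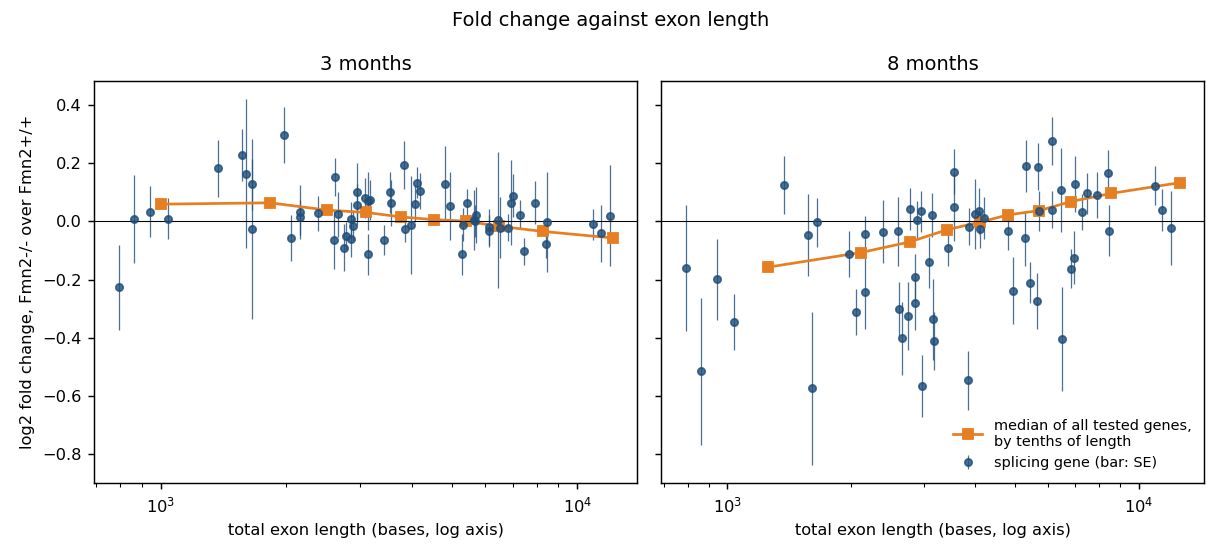
Log2 fold change (Fmn2-/- against Fmn2+/+) at 3 and 8 months against total exon length in bases on a log axis, with the members reported as points (bars: SE) and the medians of all tested genes in bins of length as a line. The line runs from 0.06 at the short end to -0.06 at 3 months and from -0.16 to 0.13 at 8 months.

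Other splicing genes, outside the members, were read beside them. Of 55 other spliceosome genes tested at 8 months 36 were lower and 19 higher (median -0.06), of 21 exon junction and SR-related genes 14 were lower (median -0.06), and the 11 genes for Sm ring assembly had a median of -0.01. Of 23 hnRNP genes 14 were higher (median 0.06), with 1 higher and 2 lower at an unadjusted p under 0.05. Of 21 neuronal splicing regulators, which repress or promote alternative exons, 13 were higher (median 0.07), but 3 were higher and 4 lower at that p. Of these lists 0 genes passed at 8 months by edgeR, while 12 of the other spliceosome genes were lower and 2 higher at an unadjusted p under 0.05. Over all 14665 genes tested at 8 months 1.13% passed, and 12.5% were lower and 10.9% higher at that p. Regardless of p, 7158 of them were lower and 7507 higher. In the age-by-genotype test Puf60, a partner of U2AF, passed (-0.37, SE 0.09, edgeR adjusted p 0.0267). In the cross Rnps1, a splicing activator of the exon junction complex, passed (0.79, edgeR adjusted p 0.00177), with 32.8 ± 6.33 CPM (SD, n = 7) in the libraries labelled Fmn2-/-_APP and 19.01 ± 2.27 CPM (SD, n = 9) in those labelled Fmn2+/+ APP.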

How the data were processed

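RNA-seq libraries (TruSeq, no strand information) came from 46 mice, 2 of which were sequenced in 2 runs. Per the labels and the study's methods, the authors aligned reads to mm10 with STAR, counted reads per gene with HTSeq and deposited raw counts; depth is the total count per library. Counts of the 2 runs of a mouse were summed. The 62 members, their classes and the other gene lists were chosen with earlier results of these data known. Symbols came from GENCODE annotation (48349 of 48709 identifiers matched). Groups follow the labels.

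Counts were tested with edgeR's quasi-likelihood test (edgeR 4.0.16, R 4.3.3; TMM, filterByExpr) over all genes passing the filter, with Benjamini-Hochberg adjustment; genes were called at an adjusted p under 0.05 with a log2 difference of at least 0.25 (Fmn2 comparisons and the age-by-genotype term) or 0.5 (cross and 4-month comparisons), in either direction. P-values measure the spread between the sampled mice. The script was tested on simulated data. CPM is normalised within each comparison, except levels over all 8 groups. Pseudogene copies were blastn 2.17.0 matches of the coding sequence elsewhere in the genome. Values per mouse are given for members called in a comparison, the member of largest log2 fold change at 8 months in each class, and Snrpb and Snrpn; any further member was named after its values were seen. Counts and medians cover all members tested, but 1 member is not reported here by itself and not plotted. Alternatives were DESeq2 1.42.0, median-of-ratios scaling, no filter, a replicate block, correction for length and GC content, lane as a covariate, summed libraries, no fold threshold and leaving out each mouse.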

Additional observations from a re-analysis of the deposited data

Results flagged for a closer look

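Values of each named member were screened by Dixon's test, in each group of 4 to 10 mice, for a single mouse far from the rest. Of 84 such screens, each of 1 gene in 1 group, 6 held one, and chance alone gives about 1 in 20. The screens share libraries and are not independent. Snrpb was at 64.8 CPM in 3-month Fmn2-/- replicate 6 and at 46.45 to 49.01 CPM in the others. Prpf31 was at 57.58 CPM in 8-month Fmn2-/- replicate 1, next to 49.23 to 50.14 CPM in the others and near the Fmn2+/+ mice. In the libraries labelled Fmn2+/+ APP, Sf3b5 was lowest in replicate 8 at 12.42 CPM (22.2 to 31.86 in the others) and Snrpf highest in replicate 6 at 2.368 CPM (1.482 to 1.888). In the 4-month APP mice Snrpa was highest in replicate 1 at 26.25 CPM (22.15 to 23.66) and Snrpn highest in replicate 5 at 479.5 CPM (386.9 to 416.2).

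A difference between the genotype effects at 8 and 3 months, tested as an interaction in edgeR, stood out for 5 members. On the log2 scale it was -0.7515 for Sf3b5, -0.6345 for Snrpa, -0.4987 for Snrpa1, -0.4659 for Snrpd2 and -0.2879 for Prpf31. For each of these genes the log2 fold change was above 0 at 3 months and below 0 at 8 months.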

How the results depend on the processing

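At 8 months the number of members called was 2, and it became 5 with DESeq2 (733 genes), 6 with no filter on low counts (1124), 1 with the length and GC correction (Sf3b5; 21), and 0 with lane as a covariate (3) or Fmn2-/- replicates 2 and 3 summed (5). Drawing every library down to the smallest, which was added after seeing the data, gave 0 (36 genes). For the age-by-genotype term the count of 5 became 8 with DESeq2 (1401), 1 with the correction (19) and 2 with the pair summed (227). With the replicate number as a block, 0 members were called at 8 months (4 genes), 0 with block and correction together (5), and 0 in both such fits of the interaction (0 genes each). The interaction median was -0.0032 with the block alone and -0.0771 with block and correction. In the cross the block gave 42 members higher and 19 lower. Whether the numbers pair the mice cannot be told from so few pairs. Same-numbered mice correlated at -0.035 on average at 8 months (3 pairs), against 0.009 for mice of other numbers. At 3 months the values were 0.064 (4 pairs, -0.070 to 0.209) against -0.012. In the cross they were 0.075 (7 pairs, -0.259 to 0.267) against -0.009, and at 4 months 0.011 (6 pairs) against -0.002. In the cross, dropping the fold threshold gave 1 member, Snrpc (261 genes). The 3-month median was 0.0885 with lane as a covariate, a fit whose genotype difference rests on Fmn2-/- replicate 1 alone. Lane could not be fitted at 4 months, where it coincides with genotype, and it was not fitted for the age-by-genotype term. Leaving out 1 mouse gave 0 to 14 members at 8 months (4 to 3087 genes; lowest without Fmn2+/+ replicate 1, highest without Fmn2+/+ replicate 2) and 0 to 12 for the interaction (8 to 2791; the same mice), and 0 in the other 3 comparisons. The median log2 fold change then ran from -0.0838 to -0.0137 at 8 months, -0.1257 to -0.037 for the interaction, -0.0156 to 0.0377 at 3 months, 0.0372 to 0.0616 in the cross and -0.0017 to 0.0211 at 4 months. Snrpa lay between -0.67 and -0.48 at 8 months (adjusted p 0.00131 to 0.325) and was not called in 6 of 8 such fits; Sf3b5 lay between -0.64 and -0.40 (0.00155 to 0.325), likewise. For the interaction the call was lost for Prpf31 in 15 of 18 fits, for Snrpa1 and Snrpd2 in 9 each, for Snrpa in 2 and for Sf3b5 in 1. The causes of these shifts were not tested. No direction of a named member's called value was reversed. At the depth of the smallest 8-month library, members near 1 CPM such as Lsm7 rest on few counts.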

Other observations

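Levels of some members in the 4-month groups lay outside the range of the other group medians. Srsf5, an SR protein, had medians of 267 and 254.8 CPM in the 4-month wild-type and APP mice and of 144 to 184 CPM in the other groups. Snrpd1 ran the other way, with 21.3 and 22.0 CPM at 4 months and 34.4 to 46.6 CPM elsewhere. Brain region, age and batch cannot be told apart here.

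Of 21 neuronal splicing regulators, 19 were lower and 2 higher in Fmn2-/- mice at 3 months (median log2 fold change -0.06, beside 0.0041 over all genes), and 0 were called by edgeR, with 1 lower at an unadjusted p under 0.05. Over all 16630 genes tested at 3 months, 8137 were lower and 8493 higher. At 8 months 8 of the regulators were lower and 13 higher, where 7158 of all 14665 genes were lower and 7507 higher. In the age-by-genotype test 14 of the 21 had a higher difference at 8 months, and 0 were called, with 5 higher and 2 lower at an unadjusted p under 0.05. These genes are listed together only by function, and no test of the list was made. Of all genes at or over the median exon length, 57.5% were lower at 3 months (median -0.02) and 35.2% at 8 months (median 0.07). The part of exon length in the counts of this list was not tested.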
